A study of Mus musculus with 12 samples.

Results

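The cluster of miR-183, miR-96 and miR-182 is a group of microRNAs cut from neighbouring hairpins, and 5 of its mature names were followed here among the 1915 mouse names of the count table: miR-182-5p, miR-182-3p, miR-183-5p, miR-183-3p and miR-96-5p. They were chosen by name, though with earlier results of these data known, and all 5 are rows of the table. The table gives small RNA read counts from extracellular vesicles, the membrane-bound particles that cells release, which were precipitated from mouse plasma. The mice were males of the inbred strain C57BL/6J. The 6 BDL libraries come from mice killed 8 days after ligation of the bile duct, an operation that stops bile flow and injures the liver, and the 6 sham libraries from mice killed 8 days after a sham operation. The labels give no other allele or agent and no age. They name liver as the tissue and extracellular vesicles as the site, and the protocol describes blood plasma. Precipitation with a polymer reagent, as used here, does not part vesicles from other particles of plasma.

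MicroRNAs are short RNAs that guide Argonaute proteins to messenger RNAs, mostly by pairing of the seed near their 5′ end, and so lower the output of those messages. The hairpins of this cluster are made as a single primary transcript, whose products are abundant in photoreceptors, hair cells of the inner ear and other sensory cells, and a base change in the miR-96 seed causes hearing loss in mice. The family is also expressed in several epithelia, and FOXO transcription factors are known targets of miR-182 and miR-96. In human alcoholic hepatitis, miR-182 has been described in the ductular reaction, the proliferation of bile duct-like cells in injured liver.

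The hairpins lie on the minus strand of chromosome 6 within 3820 bases of the GRCm38.p6 assembly (RefSeq), a build that need not be the one the authors used. In the direction of transcription Mir183 (30169668 to 30169737) comes first, Mir96 (30169446 to 30169551) follows after a gap of 116 bases, and Mir182 (30165918 to 30165992) stands 3453 bases further on. The GENCODE M21 annotation shows 0 other genes over each of them, and the nearest protein-coding genes are Nrf1, 12.5 kb away on the plus strand, and Ube2h, 41.6 kb away on the minus strand. Each mature sequence occurs at 1 locus in the RefSeq table.

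The mature sequences are shown because the results compare near relatives. Capitals mark the seed, bases 2 to 8.
mmu-miR-182-5p: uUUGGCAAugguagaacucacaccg
mmu-miR-96-5p: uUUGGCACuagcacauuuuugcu
mmu-miR-183-5p: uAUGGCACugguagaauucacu
mmu-miR-182-3p: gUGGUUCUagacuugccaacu
mmu-miR-183-3p: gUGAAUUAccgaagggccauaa
The 5p seeds of miR-182 and miR-96 differ by A8C, counted from 1 at the 5′ end with the miR-182 base first, and those of miR-183 and miR-96 by A2U, with the miR-183 base first. miR-182-5p and miR-183-5p differ in their seeds by U2A and A8C, with the miR-182 base first, yet 18 of their first 22 positions are identical, most of these beyond the seed. miR-182-5p and miR-96-5p share 12 of 23 positions and miR-183-5p and miR-96-5p share 13 of 22. How many mismatches the authors' counting allowed is not given in the sources used here, so a small exchange of reads between miR-182-5p and miR-183-5p was not tested. In the RefSeq table miR-1271-5p has the same seed as miR-96-5p; it was not analysed here.

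Library totals over mouse names ran from 121003 to 3506914 counts in BDL and from 659302 to 2684636 in sham. Counts were scaled to a library size of 1000000 (CPM) with edgeR's trimmed-mean factors. Where a name had 0 counts, as many as 3 could have been missed, equal to 24 CPM in BDL 4, with the fewest counts, and to 0.624 CPM in BDL 1, with the most. Each sample code ends in 24 or 26, of unstated meaning, and the 3 BDL libraries with suffix 26 (BDL 2, 4 and 6) are the shallowest of their group. The design text speaks of 6 animals in each group, but the labels do not tie libraries to animals, and pairs of libraries share the first digit of their code, so p-values measure the spread between libraries, which may be partly technical.

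miR-182-5p, the guide strand of the last hairpin, was higher, relative to the other names counted, in vesicle preparations from bile duct-ligated mice. CPM is a relative level, and absolute amounts in plasma were not measured. miR-182-5p had 68.5, 55.7, 24.7, 24, 47.8 and 36.7 CPM in BDL libraries 1 to 6, against 6.58, 11.8, 18.1, 13.4, 13.6 and 18.3 CPM in sham libraries 1 to 6. Every BDL library exceeded every sham library. The BDL 4 value rests on 3 counts and has a 95% Poisson interval of 4.94 to 70.1 CPM, which covers counting error only, as do the other intervals given here. The lowest well-counted BDL library, BDL 3, had 66 counts and an interval of 19.1 to 31.4 CPM, while the highest sham library, sham 6, had 12 counts and an interval of 9.45 to 31.9 CPM.

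Over the 6 libraries of each group, miR-182-5p averaged 42.9 ± 17.7 CPM (SD) in BDL and 13.6 ± 4.36 CPM (SD) in sham. Its log2 fold change was 1.73 ± 0.36 (SE), a 3.31-fold rise (adjusted p = 0.0013 by edgeR's quasi-likelihood test, adjusted by the Benjamini-Hochberg method over the 341 names tested). Among those names 42.8% passed an adjusted p of 0.05, 24.6% were higher in BDL by that test, and 11.7% had every BDL library above every sham library. The rise of miR-182-5p ranked 35 of 341 by fold change and its p-value 43 of 341. Its average level ranked 218 of 341. In bulk plasma, more vesicles from a given cell type and more copies per vesicle cannot be told apart.

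miR-183-5p, the guide strand of the first hairpin, differed less between the groups. It had 64.9, 35.9, 27.7, 16, 27.4 and 34.9 CPM in BDL libraries 1 to 6, against 17.7, 17.9, 22.3, 25.9, 18.1 and 24.4 CPM in sham libraries 1 to 6. The groups overlapped through BDL 4, whose value rests on 2 counts with an interval of 1.94 to 57.7 CPM, and the other 5 BDL libraries exceeded every sham library. BDL 1 had the highest value, at 64.9 CPM, and BDL 2 the next, at 35.9 CPM. miR-183-5p averaged 34.5 ± 16.5 CPM (SD) in BDL and 21 ± 3.64 CPM (SD) in sham. The log2 fold change of 0.80 ± 0.32 (SE) did not pass the threshold (edgeR, adjusted p = 0.0573). Without BDL 4 it passed (0.82, adjusted p = 0.0416), and without BDL 1 it was 0.43 (adjusted p = 0.264). The median log2 fold change over all 341 names was 0.03. Thus 1 of the 2 members that passed the filter on low counts was called, where 42.8% of all names tested were. With 2 names, nothing particular to the cluster is read from this count.

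**Figure D1:**
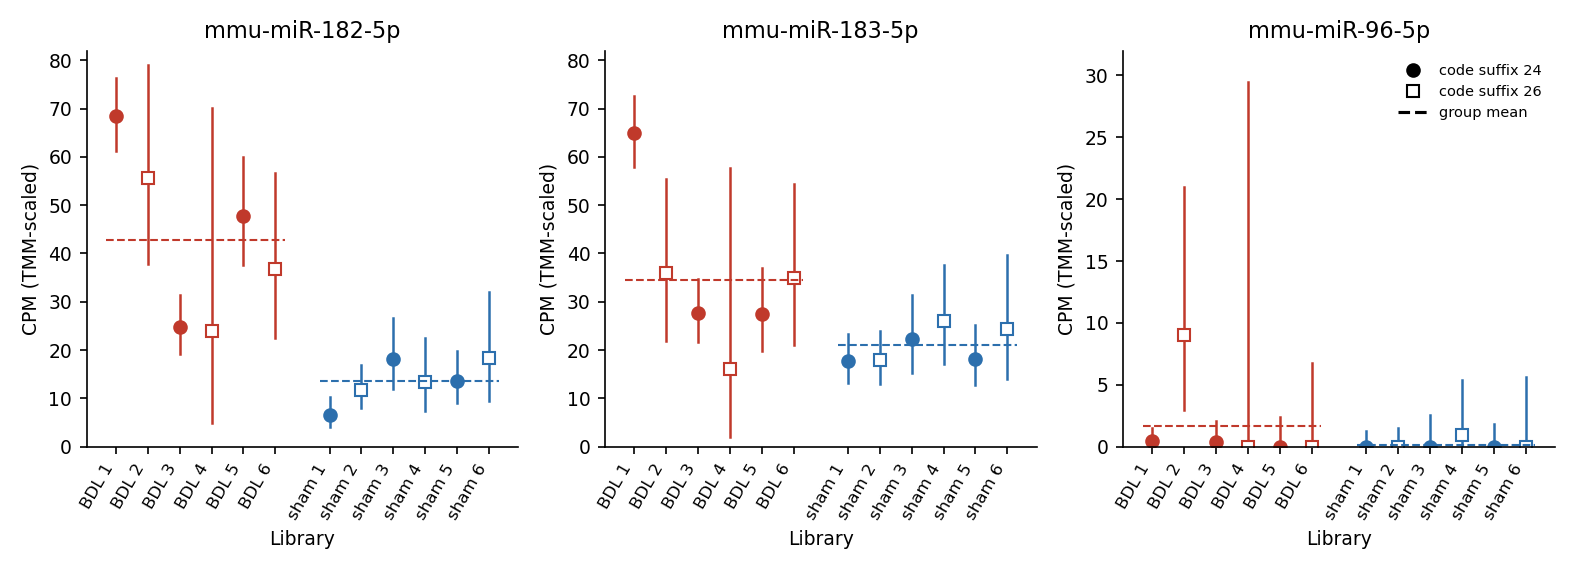
Levels of the 3 guide-strand members in each library, in CPM scaled by trimmed-mean factors, with 95% Poisson intervals as vertical lines and group means as dashed lines; BDL libraries are red and sham libraries blue, and the third panel has its own axis range. For miR-182-5p all 6 BDL libraries lie above the highest sham library at 18.3 CPM, for miR-183-5p BDL 4 lies below the sham libraries, and miR-96-5p is near 0 outside BDL 2.

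miR-96-5p, cut from the middle hairpin, was close to the limit of detection. It had 2, 5 and 1 counts in BDL libraries 1 to 3 and 0 in BDL 4, 5 and 6, against 1 count in sham 4 and 0 in the other 5 sham libraries. Summed over libraries this is 8 counts in BDL and 1 count in sham. The BDL sum corresponds to 0.779 CPM (95% Poisson interval 0.336 to 1.53) and the sham sum to 0.0956 CPM (0.00242 to 0.532), so the intervals overlap. BDL 2 held 5 of the 8 BDL counts, at 8.99 CPM, and BDL 1, with more than 10 times as many counts of miR-182-5p, held 2. The name did not pass the filter on low counts. With no filter its log2 fold change was 2.67 ± 1.29 (SE; edgeR, adjusted p = 0.189).

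The opposite strands were rare. miR-182-3p, the passenger strand of its hairpin, had 1 count in BDL 2, 2 in BDL 6 and 0 in the other 4 BDL libraries, against 1 count in each of sham 2, 3, 5 and 6 and 0 in sham 1 and 4. A difference between groups was not detectable at this depth (log2 fold change 0.30 ± 1.46 with no filter, edgeR adjusted p = 0.939). Of the counts of both miR-182 arms, the 5p arm took 99.4% in BDL (exact 95% interval 98.3 to 99.9) and 96.9% in sham (92.4 to 99.2). miR-183-3p had 0 counts in all 12 libraries, which allows up to 0.292 CPM over the BDL libraries together and 0.287 CPM over the sham libraries, beside 676 counts of miR-183-5p. miR-96-3p, the arm outside the listed members, also had 0 counts in all 12.

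The balance between the guide strands of miR-182 and miR-183, which are made from the same transcript, differed between the groups. This ratio is taken within a library and so does not depend on scaling. miR-182-5p had 1.05, 1.55, 0.892, 1.5, 1.74 and 1.05 counts for each count of miR-183-5p in BDL libraries 1 to 6, against 0.373, 0.659, 0.813, 0.519, 0.75 and 0.75 in sham libraries 1 to 6. miR-182-5p was the more frequent name in 5 of 6 BDL libraries and in 0 of 6 sham libraries, and the groups did not overlap. Counting intervals of its share of both names excluded an even split only in BDL 5 (54.2 to 72.2%) and sham 1 (17.2 to 39.1%). The nearest libraries were BDL 3 and sham 3, and the counting intervals of their shares overlapped. Of all names tested, 42.8% differed between the groups by edgeR's test. How many other pairs of names separate the groups was not counted, so nothing particular to this pair is read from the ratio.

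Expressed as a share of the counts of both names, miR-182-5p averaged 55.7 ± 6.6% (SD) in BDL and 38.6 ± 6.74% (SD) in sham, with 6 libraries in each. The log2 ratio, with 0.5 added to each count, averaged 0.31 ± 0.37 (SD) in BDL and -0.67 ± 0.42 (SD) in sham. The difference was 0.98 on the log2 scale, a 1.98-fold shift (two-sided exact permutation test, p = 0.00216, the smallest it can give with 6 libraries against 6). It was the only ratio tested, because the other members had too few counts, so its adjusted p is the same. The share rested on 641, 51, 140, 5, 118 and 39 counts of both names in BDL libraries 1 to 6 and on 28 to 73 counts in the sham libraries. It was 51.3% in BDL 1 (exact interval 47.4 to 55.3) and 27.1% in sham 1 (17.2 to 39.1), the lowest. Adapter ligation favours some sequences over others, so the ratio does not give the molar amounts of the names.

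**Figure D2:**
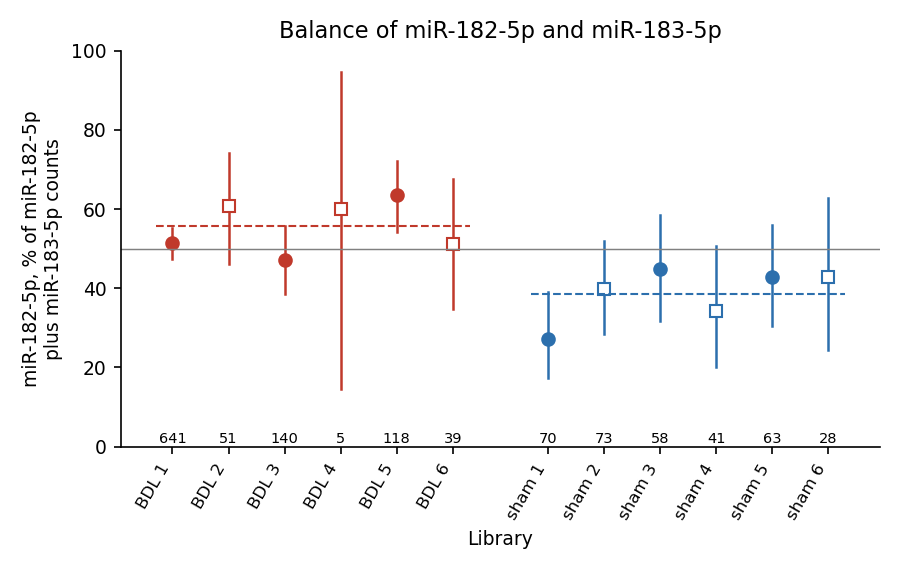
Share of miR-182-5p among the counts of miR-182-5p and miR-183-5p in each library, in percent, with exact 95% binomial intervals, group means as dashed lines and the number of counts of both names above the axis; BDL libraries are red and sham libraries blue, filled circles have code suffix 24 and open squares 26. The BDL libraries lie between 47.1 and 63.6% and the sham libraries between 27.1 and 44.8%, and BDL 4, with 5 counts, has the widest interval.

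Within the sample codes the direction was the same. For miR-182-5p the log2 fold change was 1.94 ± 0.48 among the 6 libraries with suffix 24 (edgeR, adjusted p = 0.0108) and 1.47 ± 0.49 among the 6 with suffix 26 (adjusted p = 0.0296), 3 libraries a group in each. For miR-183-5p it was 1.09 ± 0.41 with suffix 24 (adjusted p = 0.0625) and 0.43 ± 0.49 with suffix 26 (adjusted p = 0.504). The difference between suffixes, 26 minus 24, was -0.37 ± 0.72 for miR-182-5p (adjusted p = 0.808) and -0.58 ± 0.66 for miR-183-5p (adjusted p = 0.657), both with wide errors. The log2 ratio of the names differed by 0.94 between BDL and sham with suffix 24 and by 1.03 with suffix 26, where an exact permutation test of 3 against 3 cannot go below p = 0.1.

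**Figure D3:**
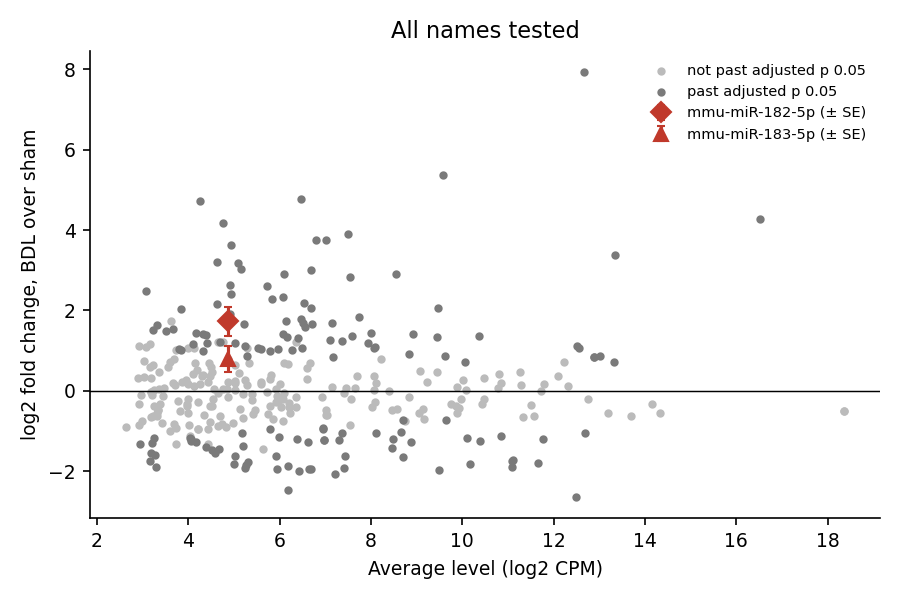
Log2 fold change, BDL over sham, against average level in log2 CPM for the 341 names tested, with names past an adjusted p of 0.05 in dark grey and the tested members in red with SE bars. miR-182-5p (1.73) and miR-183-5p (0.80) stand at nearly the same level, and only miR-182-5p is past the threshold.

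Of each 1000000 mouse counts, without scaling factors, all 5 names together took 183, 91.5, 61.9, 41.3, 72.1 and 61.5 in BDL libraries 1 to 6, against 26.1, 31, 42.7, 29.8, 32.7 and 44 in sham libraries 1 to 6. The groups overlapped, since BDL 4 lay below sham 3 and sham 6. This averaged 85.3 ± 50.7 (SD) in BDL and 34.4 ± 7.3 (SD) in sham, with 6 libraries in each. BDL 1, the deepest library, had the highest share, and without it the difference of the means was 31.3 rather than 50.9 in the same unit. The difference was 72 among libraries with suffix 24 and 29.8 among those with suffix 26. The totals include miR-486a-5p and miR-486b-5p, whose levels were equal in every library (mean 278640 CPM in BDL and 392088 in sham for each). Whether the same reads were counted under both names was not tested.

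The libraries differed in other ways too. Hepatocyte microRNAs, 4 of 4 of which are in the table, summed to between 74747 and 327680 CPM in BDL and between 4013 and 25209 CPM in sham. Most of that sum was miR-122-5p (mean 179790 CPM in BDL, 9353 in sham). Of the 3 hepatocyte names tested, 2 were higher in BDL and 1 did not pass, where 24.6% of all names tested were higher. Erythroid microRNAs (5 of 5 in the table) summed to between 124800 and 378360 CPM in BDL and between 358590 and 556060 in sham. These ranges overlap. Most of the erythroid sum was miR-486a-5p (mean 278640 CPM in BDL, 392090 in sham), which did not pass the threshold (edgeR, adjusted p = 0.162). Of the 4 erythroid names tested, 2 were lower in BDL and 2 did not pass, where 18.2% of all names tested were lower. The lower ones were miR-451a (log2 fold change -2.63 ± 0.33, edgeR adjusted p = 3.51e-05) and miR-486a-3p (-1.74 ± 0.24, edgeR adjusted p = 6.53e-05). Leukocyte microRNAs (5 of 5) summed to between 562.5 and 2214 CPM in BDL and between 2805 and 6421 in sham. Most of that sum was miR-142a-5p (mean 918 CPM in BDL, 3445 in sham). Of the 5 leukocyte names, 3 were lower in BDL and 2 did not pass, where 18.2% of all names tested were lower. The endothelial and platelet microRNA miR-126a (2 of 2 arms) summed to between 631.4 and 2619 CPM in BDL and between 3151 and 8884 in sham. None of these markers was at 0 in all libraries. miR-122-3p had 11 counts in BDL and 0 in sham. Neural and sensory microRNAs (4 of 4) summed to 6.03 to 18.5 CPM in BDL and 6.27 to 61.8 in sham, ranges that overlap. The 1 tested name among them, miR-204-5p, a microRNA of retinal pigment epithelium, fell, with 2.61 ± 2.9 CPM in BDL and 13.5 ± 5.75 in sham (log2 fold change -1.89 ± 0.54, edgeR adjusted p = 0.00987). The part of any of these in the rise of miR-182-5p was not tested.

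Other epithelial microRNAs had values in both directions, though their sum was lower in BDL. The 14 names listed summed to between 406 and 729 CPM in BDL and between 823 and 1113 in sham. These ranges do not overlap, and the sum was not tested. Of 14 names listed, 7 could be tested, of which 1 rose, 3 fell and 3 did not pass the test, with a median log2 fold change of -0.19. Over all names tested 24.6% were higher, 18.2% lower and the median was 0.03, and with 7 names nothing particular to the list is read from these counts. miR-375-3p, known from pancreatic islets and gut epithelium, was the most abundant, at 311 ± 35.7 CPM (SD) in BDL and 518 ± 99.6 CPM (SD) in sham. Its log2 fold change was -0.73 ± 0.22 (SE; edgeR, adjusted p = 0.0148). The rise was that of miR-200b-5p, of an epithelial microRNA family, at 12.8 ± 10.3 CPM in BDL and 4.42 ± 1.76 CPM in sham (log2 fold change 1.63 ± 0.47, edgeR adjusted p = 0.0111). The more abundant arm of its hairpin, miR-200b-3p, did not pass the threshold (0.18 ± 0.39, edgeR adjusted p = 0.734). In the same family miR-200a-3p did not pass (-0.14 ± 0.36, edgeR adjusted p = 0.792) and miR-200c-3p fell (-1.62 ± 0.49, edgeR adjusted p = 0.0141). The largest fall was that of miR-205-5p, a microRNA of stratified epithelium, with 40.8 ± 11 CPM in BDL and 161 ± 43.4 in sham (log2 fold change -1.94 ± 0.29, edgeR adjusted p = 8.39e-05).

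Few microRNAs near the cluster on chromosome 6 were abundant enough to test. Within 5 Mb the table has 9 names, of which 3 could be tested. Of these, 1 was past the threshold as higher in BDL and 0 as lower, where 24.6% of all names tested were higher and 18.2% lower, and with 3 names nothing particular to the neighbours is read from this. Their median log2 fold change was 0.46, against 0.03 over all names. The name past it, miR-129-5p, a brain-enriched microRNA, averaged 142 ± 56.5 CPM (SD) in BDL and 40.4 ± 7.56 CPM (SD) in sham (log2 fold change 1.79 ± 0.32, edgeR adjusted p = 3.77e-04), but its name has 2 loci in the RefSeq table. The most abundant, miR-29a-3p, which represses collagen messages, had 807 ± 536 CPM in BDL and 590 ± 167 in sham and a log2 fold change of 0.46 ± 0.38 (edgeR, adjusted p = 0.361). The third, miR-29b-3p of the same family, had 5.7 ± 4.05 CPM in BDL and 9.47 ± 6.22 in sham, a log2 fold change of -0.65 ± 0.52 (edgeR, adjusted p = 0.337). Its name also has 2 loci in the RefSeq table, so its counts need not come from chromosome 6.

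Within the groups, miR-182-5p and miR-183-5p varied together. With each group's mean removed, their log2 CPM values had a Pearson r of 0.737 over 12 libraries, a description only, since both share the library, its depth and its scaling. It was 0.643 without BDL 1 and 0.66 without BDL 4. No other tested name was closer to miR-182-5p, while miR-182-5p ranked 20 among the names most like miR-183-5p. After the cluster itself, the names most like miR-182-5p by this measure were miR-296-3p (r = 0.708) and miR-1839-5p (r = 0.654), and those most like miR-183-5p were miR-296-3p (r = 0.917) and miR-378a-3p (r = 0.879). These names did not all differ between groups in the same way. miR-296-3p had 70.8 ± 31.4 CPM in BDL and 36.8 ± 8.71 in sham (log2 fold change 1.00 ± 0.32, edgeR adjusted p = 0.0199), and miR-378a-3p had 9715 ± 3178 CPM in BDL and 5461 ± 1040 in sham (0.83 ± 0.25, edgeR adjusted p = 0.013). miR-1839-5p had 289.8 ± 89.8 CPM in BDL and 409 ± 84.8 in sham (-0.48 ± 0.27, edgeR adjusted p = 0.162).

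**Figure D4:**
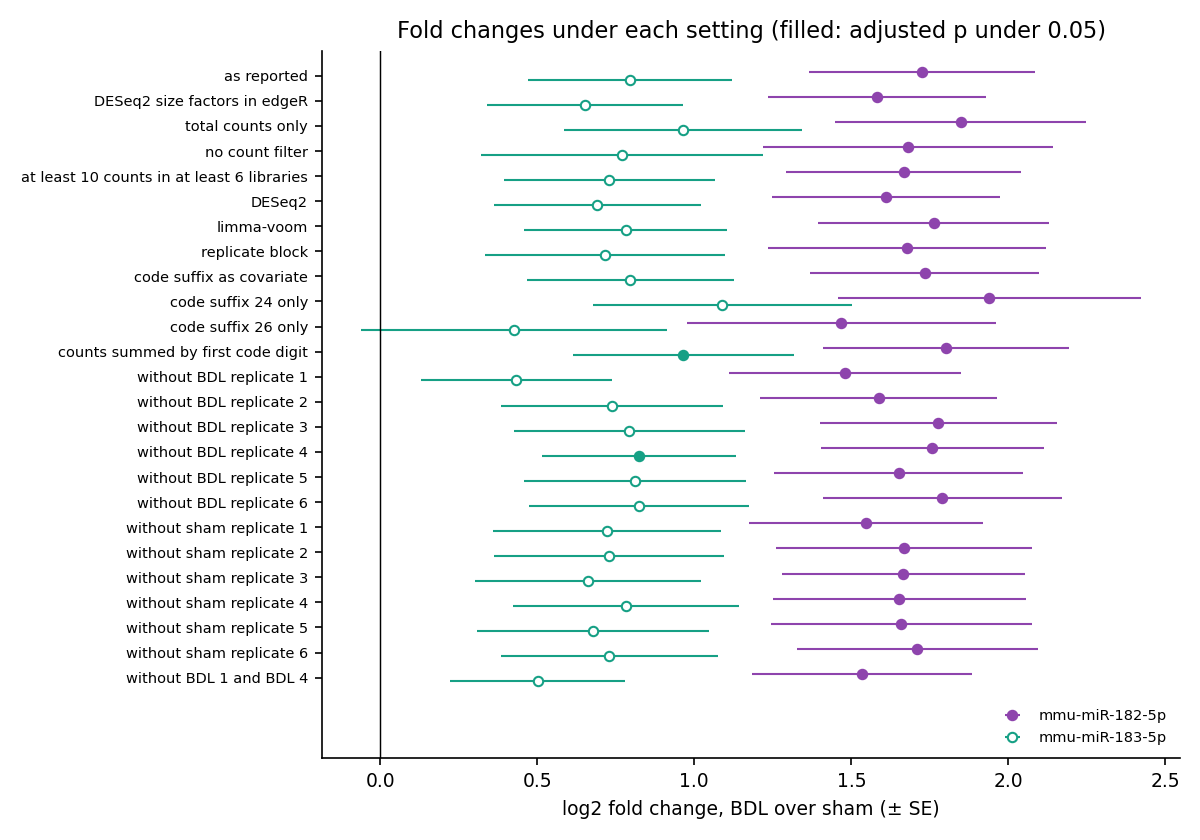
Log2 fold change, BDL over sham, with SE bars for miR-182-5p (purple) and miR-183-5p (green) under the reported setting, at the top, and each other setting, down the page; filled points have an adjusted p under 0.05. miR-182-5p stays between 1.47 and 1.94 and is filled throughout, and miR-183-5p stays between 0.43 and 1.09 and is filled with BDL 4 left out and with counts summed by first code digit.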

How the data were processed

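Small RNA libraries were made with a NEBNext kit from 40 ng of vesicle RNA with 15 PCR cycles, per the labels' protocols, and no molecular identifiers are described. The authors deposited raw counts per mature microRNA name, and whole numbers with unequal totals show no normalisation. Cutadapt and STAR are named in the submitters' processing notes, with no version, and the genome build, annotation and mismatch settings are not given in these sources. Of 1982 rows, 67 are names of other species (0.00271% of counts) and were left out.

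Counts were tested with edgeR 4.0.16 (R 4.3.3; quasi-likelihood F test, trimmed-mean scaling, filter on low counts by group, Benjamini-Hochberg adjustment over 341 names), checked on simulated data. Standard errors were taken as |log2 fold change| / sqrt(F). Log2 CPM used a prior count of 2. Ratios were tested where both names were counted in 10 or more libraries. Alternatives included limma 3.58.1 and DESeq2 1.42.0. Intervals cover counting error only. Named microRNAs were the members, the 2 most like each tested member, and from the epithelial and neighbour lists the most abundant and the largest rise and fall. Cell type lists and the epithelial list were summed. Named after their values were seen were miR-122-3p, miR-122-5p, miR-204-5p, miR-29b-3p, miR-451a, miR-486a-3p, miR-486a-5p, miR-486b-5p, miR-142a-5p, miR-200a-3p, miR-200b-3p and miR-200c-3p. Members and lists were chosen with earlier results of these data known. Sequences are from RefSeq (GRCm38.p6), where 5 of 5 members matched by name.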

Additional observations from a re-analysis of the deposited data

Results flagged for a closer look

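Of 12 groups of 6 values examined (levels, shares and the ratio, in BDL and in sham), 3 had an extreme library standing apart. Chance gives about 1 in 20 for normally distributed values, which these levels and shares need not be. That rate does not apply to the groups of miR-96-5p, which are mostly counts of 0. miR-96-5p stood at 8.99 CPM in BDL 2, from 5 counts, and the gap to the next BDL library was 0.954 of the range. miR-96-5p stood at 0.96 CPM in sham 4, from 1 count, with every other sham library at 0. The 5 names together took 183 of each 1000000 counts in BDL 1, and the gap to the next BDL library was 0.647 of the range.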

How the results depend on the processing

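The rise of miR-182-5p kept its direction and stayed past the threshold in all 24 other settings tried (log2 fold change 1.47 to 1.94, adjusted p at most 0.0296; 1.48 to 1.79 when single libraries were left out). miR-183-5p was higher in BDL in all 24 (0.43 to 1.09) and passed the threshold in 2, with counts summed by first code digit (0.97, adjusted p = 0.0485) and without BDL 4, within a range of 0.43 to 0.82 when single libraries were left out; adjusted p ran from 0.0416 to 0.504. The log2 ratio of the names differed by 0.84 to 1.08 when single libraries were left out (exact permutation p at most 0.00433), by 0.94 and 1.03 within suffixes 24 and 26 and by 0.84 with counts summed by first code digit, the last 3 with p = 0.1, the smallest 3 against 3 allows. The difference in summed share was 50.9 of each 1000000 counts, 31.3 to 59.7 when single libraries were left out, and 161 when miR-486a-5p, miR-486b-5p and miR-122-5p were taken out of the total, which makes the total smaller. Counts of names past the threshold ran from 120 to 156 when single libraries were left out and from 102 to 176 over all settings, against 146. DESeq2 size factors moved the median of all names by -0.14; relative to that median miR-182-5p had 1.69 and miR-183-5p 0.76. Same-numbered BDL and sham samples did not all deviate together (r from -0.0886 to 0.311 over 6 pairs, with numbers 5 and 6 at 0.311 and 0.296 and each its own best match), so the numbers were not taken to pair them. The replicate block gave 1.68 (adjusted p = 0.0086) for miR-182-5p, 0.72 (0.151) for miR-183-5p, 133 names past the threshold and a ratio difference of 0.98 (exact sign-flip permutation p = 0.0312), so no call on a member changed. Summing by digit, for the ratio, and leaving out BDL 1 and BDL 4 together (1.53 for miR-182-5p, 0.50 for miR-183-5p, 1.00 for the ratio) were chosen after seeing the data. Depth limits miR-96-5p and the 3p arms, and BDL 4 throughout.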

Other observations

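On chromosome 6 near the cluster, miR-335-5p, from an intron of the imprinted gene Mest, was under the filter on low counts. It had 6.76 ± 1.09 CPM in BDL and 2.73 ± 1.23 CPM in sham (SD, n = 6 each), from 66 and 28 counts. The other arm of the same hairpin, miR-335-3p, had 5.52 ± 2.6 CPM in BDL and 4.65 ± 4.31 CPM in sham, from 69 and 59 counts. miR-335-5p was chosen after its values were seen and was not tested.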
